A study of Mus musculus with 6 samples.

Results

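Of the 32285 genes counted in mouse lymph node cells, 8 genes of somatic hypermutation and its repair pathways were described: Ung, Tdg, Neil1, Apex1 and Apex2 of base excision, Msh6 and Exo1 of mismatch repair, and Polh of translesion synthesis. They were picked out by symbol and read in 4689 follicular and 3596 germinal centre B cells. Germinal centre cells held at least 1 Cd79a UMI and a UMI of at least 2 of 6 germinal centre genes, Rgs13, Mybl1, S1pr2, Parm1, Basp1 and Fas. Follicular cells held at least 1 Fcer2a UMI and were outside that gate. A UMI is 1 counted RNA molecule, and none of the 8 genes is in either gate.

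Germinal centres are the sites where activated B cells divide and mutate their antibody genes. A deaminase of these cells, AID, turns cytosines of the antibody genes into uracils, and the mutations arise as those uracils are processed. Uracil DNA glycosylase removes the uracil and leaves an abasic site, which an apurinic endonuclease can cut, while the mismatch repair factors recognise the mispair, cut back a patch of DNA and let an error-prone polymerase fill it. Cells of a germinal centre alternate between a dark zone of division and mutation, marked by Cxcr4, and a light zone of selection, marked by Cd83 and Cd86.

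The draining lymph nodes came from 3 wild-type mice and 3 mice with a Pik3cg knockout, Pik3cg being the gene of the catalytic subunit p110gamma of phosphoinositide 3-kinase. All 6 mice had received 3 immunizations with NP-Ova, a hapten on ovalbumin, in alum and were sampled at day 34. A fraction selected as B cells with an added depletion of IgD-bearing cells made up 70% of each mixture and untouched cells 30%. Numbers of cells per gate are thus set in part by that mixing. The share of each fraction in each gate, and its part in differences between the gates, was not tested. The mice were told apart by antibody hashtags, pooled and loaded on 2 lanes of the 10x single-cell 5′ V(D)J assay. Age, strain, sex and the deleted stretch of Pik3cg were not given in the sources used here. Each mouse is 1 replicate, written WT1 to WT3 and KO1 to KO3 by the order of its hashtag.

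Of 23516 barcodes, 19270 carried a single hashtag, 3902 carried several and were left out as likely doublets, and 344 carried none; 19208 cells were kept. The mice gave 2539 to 4049 cells each, and the germinal centre gate held 117 cells in WT2, the fewest, and 1288 in KO2, the most. Median UMIs per cell were 1809 to 1970.5 in the follicular gate, 4419 to 4865.5 in the germinal centre gate and 2507 to 2673.5 in a T cell gate of 2846 cells, which held a Cd3e UMI and no Cd79a UMI outside both B cell gates and served as a non-B level. Between the lanes, 134 cell barcode sequences recurred among the kept cells. Levels are given as CPM, the UMIs of a gene per 1000000 UMIs of that gate in that mouse, with the SD over 6 mice, and are not compared between genes.

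The gates matched the follicular and germinal centre markers named here. Bcl6 and Mef2b, which no gate used, were at 146 ± 13.6 and 343 ± 19.7 CPM in the germinal centre gate and at 81.8 ± 6.32 and 27.6 ± 5.04 CPM in the follicular gate (SD, n = 6). Cr2, a follicular marker, was at 267 ± 33.3 CPM in the follicular gate against 71.6 ± 14.1 CPM in the germinal centre gate. A Fcer2a UMI was present in 29.4% of the germinal centre cells, and the Fcer2a level there was 77.7 ± 8.19 CPM against 722 ± 48.0 CPM in the follicular gate. The 6 T cell markers summed to 66.1 to 92.1 CPM in the germinal centre gate, 77.7 to 108 CPM in the follicular gate and 2518 to 2811 CPM in the T gate. The 5 antibody-secreting markers summed to 1561 to 2219 CPM in the germinal centre gate and 328 to 931 CPM in the follicular gate. Both zone lists were higher in the follicular gate. The 4 dark zone markers summed to 1237 to 1428 CPM there and 456 to 586 CPM in the germinal centre gate. For the 5 light zone markers these sums were 580 to 683 and 401 to 506 CPM.

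Pik3cg (chr12:32173473-32208659, minus strand) did not separate the genotypes in germinal centre cells, where its levels were 28.2, 18.7 and 34.0 CPM in WT1 to WT3 and 26.3, 23.2 and 28.7 CPM in KO1 to KO3. In follicular cells the KO mice, at 38.9, 32.8 and 38.1 CPM, were all below the WT mice, at 44.4, 40.5 and 47.9 CPM, and the difference did not pass the test (-0.25 ± 0.14 SE on the log2 scale; edgeR adjusted p = 0.779). Since the deleted stretch is unknown and the 5′ reads may lie outside it, these values do not check the labels, and the mice are called KO as labelled.

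**Figure D1:**
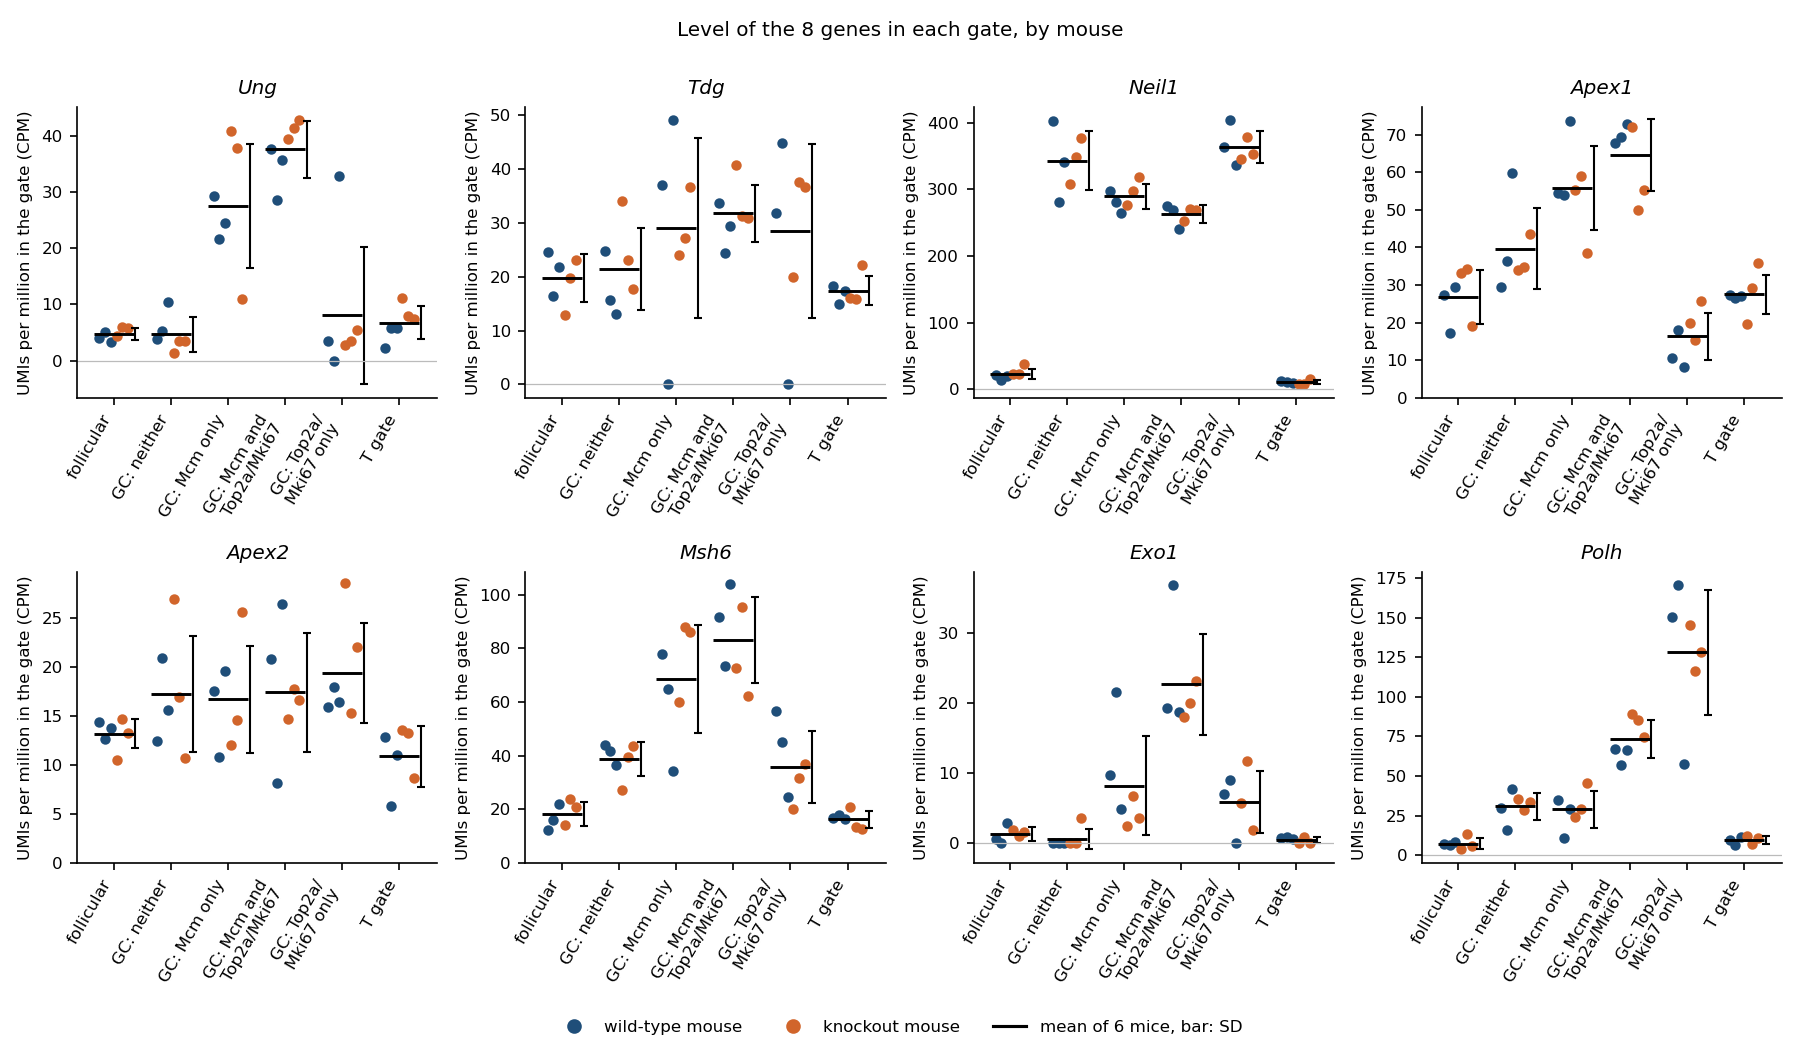
Level of each gene (y axis, CPM from 0, a separate scale per gene) in follicular cells, 4 germinal centre states and the T gate (x axis); each point is 1 mouse, blue for WT and orange for KO, lines are means and bars SDs of 6 mice. Neil1 is at 241 CPM or more in every germinal centre state of every mouse and at 37.3 CPM or less in follicular cells; Ung and Exo1 stand out in the states with Mcm UMIs, and Polh in the states with Top2a or Mki67 UMIs.

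Neil1, a glycosylase that removes oxidised bases, had the largest difference of the 8 genes between the gates. Neil1 lies at chr9:57142800-57148305 on the minus strand (GRCm38, GENCODE vM21). Its level in germinal centre cells ranged from 280 CPM through a median of 303 to 323 CPM, against 13.9, 22.3 and 37.3 CPM as the lowest, median and highest values in follicular cells. The 2 sets of values did not overlap, and all 6 mice were higher in the germinal centre gate. How many of all genes lack overlap between gates, states or zones was not counted. Non-overlap, here and below, is therefore a description of the values only. The fold change was 3.72 on the log2 scale (SE 0.11, edgeR adjusted p = 2.1e-13), and within lanes it was 3.66 in lane 1 and 3.70 in lane 2. The T gate held 10.5 ± 2.91 CPM. With every cell thinned to 1500 UMIs, a Neil1 UMI was found in 34.8% ± 2.91 of germinal centre cells, 3.02% ± 1.01 of follicular cells and 1.55% ± 0.76 of T gate cells (SD, n = 6); unthinned, the shares were 69.5%, 4.197% and 2.74%. Thinning left out 45 germinal centre, 1066 follicular and 174 T gate cells of lower depth. No cell type here is known to lack these repair genes, so the T gate is a reference and not a measure of free RNA.

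The bases around the Neil1 start site, 175 before and 25 after it, are shown because this gene carries the largest difference; the window is chr9:57148281-57148480, minus strand, written 5′ to 3′ from the RefSeq promoter table of build GRCm38.p6.
Neil1: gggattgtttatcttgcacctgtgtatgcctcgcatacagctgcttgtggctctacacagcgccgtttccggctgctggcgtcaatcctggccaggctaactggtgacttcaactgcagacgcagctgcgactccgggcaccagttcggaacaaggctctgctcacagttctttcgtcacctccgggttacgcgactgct
None of 4 E2F-type letter strings, TTTCCCGC, TTTGGCGC, TTTCGCGC and TTTGCCGC on either strand, is in the 300-base Neil1 entry; capitals mark such a match in the windows printed here. Of 32851 promoters of that length, 744 (2.26%) hold one. The promoters of 6 of the 8 genes were matched by symbol: Ung, Tdg, Neil1, Apex1, Msh6 and Polh.

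Ung encodes the uracil DNA glycosylase itself (chr5:114130386-114139323, plus strand). Its germinal centre levels were 15.6 CPM at the lowest, 24.8 at the median and 26.7 at the highest, against 3.32, 4.69 and 6.05 CPM in follicular cells. Every mouse was higher in the germinal centre gate and the gates did not overlap (2.32 on the log2 scale, SE 0.18; edgeR adjusted p = 1.6e-08). Ung UMIs were concentrated in cells with Mcm UMIs. Of 505 Ung UMIs in the germinal centre gate, 93.3% came from the 2 states with Mcm UMIs described further on, which held 61.1% of all UMIs of the gate. In the state marked by neither these nor Top2a or Mki67 UMIs, Ung was at 4.67 ± 3.06 CPM. Follicular cells were at 4.78 ± 1.05 CPM and the T gate at 6.71 ± 2.92 CPM, and these ranges all overlapped.

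The Ung window, shown beside that of Neil1 because the level of Ung followed the states with Mcm UMIs, is chr5:114130260-114130459, plus strand (RefSeq, GRCm38.p6).
Ung: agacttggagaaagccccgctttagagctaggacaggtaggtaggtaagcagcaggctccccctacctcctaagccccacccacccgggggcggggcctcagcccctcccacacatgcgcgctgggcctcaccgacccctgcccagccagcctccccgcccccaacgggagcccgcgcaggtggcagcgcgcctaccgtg
The 300-base Ung entry holds no match to the 4 letter strings. G and C make up 70.5% of the printed Ung window and 57.5% of that of Neil1.

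Apex1, the main apurinic endonuclease of mammalian cells (chr14:50924968-50927139, plus strand), was at 43.3, 48.5 and 63.5 CPM as the lowest, median and highest germinal centre levels, and at 17.1, 28.4 and 34.3 CPM in follicular cells. The gates did not overlap (log2 change 0.87 with SE 0.13; edgeR adjusted p = 1.9e-05). Tdg, a thymine and uracil glycosylase (chr10:82629828-82650799, plus strand), was at 21.8 to 34.3 CPM in germinal centre and 13.0 to 24.6 CPM in follicular cells. Apex2, a second apurinic endonuclease (chrX:150519519-150589868, minus strand), was at 14.0 to 21.4 against 10.5 to 14.6 CPM. Both were higher in the germinal centre gate in 6 of 6 mice, with ranges that overlapped, and passed the test with small fold changes of 0.55 (SE 0.14, edgeR adjusted p = 0.0031) for Tdg and 0.42 (SE 0.15, edgeR adjusted p = 0.020) for Apex2. The Apex2 call was lost with DESeq2 (adjusted p = 0.136), in either lane alone (edgeR adjusted p = 0.237 and 0.0954), without WT3 (0.0523) and without KO1 (0.0812) and with a follicular gate of 2 Fcer2a UMIs (log2 change 0.26, adjusted p = 0.274), and the Tdg call in lane 2 alone (0.114).

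Msh6 encodes the subunit that pairs with the MutS partner to bind mispairs (chr17:87975062-87990892, plus strand). Its levels were 53.9, 62.5 and 73.0 CPM as the lowest, median and highest in germinal centre cells and 12.3, 18.3 and 23.7 CPM in follicular cells, with no overlap (log2 change 1.81 with SE 0.12; edgeR adjusted p = 2.8e-09). Exo1, the exonuclease that cuts back the mismatched strand (chr1:175880581-175913489, plus strand), was counted 238 times in all germinal centre cells and 14 times in all follicular cells. Its germinal centre levels were 9.60 to 18.7 CPM and its follicular levels 0 to 2.84 CPM, with WT2 at 0 UMIs, which allows up to 1.90 CPM by counting error alone. It was fitted at 3.05 on the log2 scale (SE 0.38; edgeR adjusted p = 3.0e-06). Ung and Exo1 were too rare in follicular cells to be tested there on their own and entered this comparison through their germinal centre counts.

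The Msh6 window is chr17:87974875-87975074, plus strand (RefSeq, GRCm38.p6), shown because it alone among the 6 promoters holds a match, in capitals and beginning at base 16 after the start site.
Msh6: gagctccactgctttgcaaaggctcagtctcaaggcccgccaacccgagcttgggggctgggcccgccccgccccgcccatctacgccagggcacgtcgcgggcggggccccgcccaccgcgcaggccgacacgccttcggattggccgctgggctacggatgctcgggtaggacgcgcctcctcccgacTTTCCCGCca
The match is a description of letters and not of a bound site.

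Polh encodes the translesion polymerase eta, which makes many of the mutations at A and T bases (chr17:46171355-46202645, minus strand). Germinal centre levels were 53.2, 65.5 and 74.0 CPM as the lowest, median and highest, and follicular levels 3.70, 6.58 and 13.6 CPM. All 6 mice were higher in the germinal centre gate, without overlap (log2 change 3.04 with SE 0.18; edgeR adjusted p = 3.3e-10). The T gate, at 9.69 ± 2.50 CPM, overlapped the follicular range.

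The Polh window is chr17:46202617-46202816, minus strand (RefSeq, GRCm38.p6), shown because Polh peaked in a different state from Ung.
Polh: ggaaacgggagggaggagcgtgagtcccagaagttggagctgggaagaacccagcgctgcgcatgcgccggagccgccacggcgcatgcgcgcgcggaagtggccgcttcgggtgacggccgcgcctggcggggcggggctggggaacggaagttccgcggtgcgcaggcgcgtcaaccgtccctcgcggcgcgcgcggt
The 300-base Polh entry holds none of the 4 letter strings, and G and C make up 74.5% of its printed window.

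In all, 8 of 8 genes were called higher in germinal centre than in follicular cells by edgeR, where 67.9% of the 10105 genes tested were called in either direction. A large share of the transcriptome thus differed between these gates, and the number of calls by itself sets the 8 genes little apart. The 8 include Ung and Exo1, which entered through their germinal centre counts. In thinned cells, the follicular shares of cells with a UMI were at or below those of the T gate for Ung (0.55% against 0.93%), Polh (1.13% against 1.37%) and Msh6 (2.51% against 2.56%).

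Of 65 further genes of these pathways, 61 were tested between the gates, and 37 were called higher and 11 lower in germinal centre cells, beside the 67.9% called over all genes. The mismatch repair and resynthesis list gave 15 of 18 higher and 1 lower, with a median log2 fold change of 1.05. Base excision gave 9 higher and 2 lower of 14 tested (median 0.36), and translesion synthesis with PCNA ubiquitination gave 6 higher and 2 lower of 11 (median 0.67). The 6 cofactors of transcription-coupled deamination gave 1 higher and 3 lower (median -0.22). The largest called changes, all higher, were those of Neil3, a paralogue of Neil1 (log2 fold change 5.01), the thymidylate synthase gene Tyms (3.47), the histone gene H2afx (3.42), the DNA ligase gene Lig1 (3.30), the dUTPase gene Dut (3.00) and Polq, a polymerase of end joining (2.66).

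The germinal centre gate was split by UMIs of replication licensing genes (Mcm2, Mcm3, Mcm5 and Mcm6 together) and of late-cycle genes (Top2a and Mki67 together), at least 2 UMIs marking a state. Cells with 1 UMI of either kind can thus be in the state with neither mark, which is not a state free of cycling cells. Per mouse, 41.5% ± 2.01 of germinal centre cells had neither mark, 15.5% ± 1.36 had the Mcm mark only, 29.9% ± 3.32 had both and 13.0% ± 1.94 had the Top2a/Mki67 mark only (SD, n = 6). Median UMIs per cell were 3253 to 3885 in the neither state and 6880 to 8086.5 in the state with both marks, so a deeper cell is also more likely to be marked. With cells thinned to 1500 UMIs, a share of 0.96% ± 0.92 had an Ung UMI in the neither state (unthinned 1.70%). It was 5.35% ± 3.13 with the Mcm mark only and 5.28% ± 2.66 with both marks (unthinned 11.7% and 21.99%). Thinned to 1000 UMIs, these 3 shares were 0.65% ± 0.79, 1.05% ± 1.54 and 4.03% ± 2.06. At that depth the Mcm-only share lay near that of the neither state. The Polh share at 1500 UMIs was 4.25% ± 1.26 in the neither state (unthinned 9.96%). With the Top2a/Mki67 mark only it was 18.4% ± 9.53 (unthinned 42.5%). Thinned shares of 2 genes did not follow the CPM between the Mcm-only and neither states, described next: Apex1 was at 4.89% ± 3.03 against 4.98% ± 1.86, and Neil1 at 37.7% ± 3.61 against 36.3% ± 5.01 (SD, n = 6; unthinned 20.1% against 11.9%, and 68.5% against 63.7%). Thinning to 1500 UMIs left out 35 cells of the neither state, 2 of each Mcm state and 6 of the Top2a/Mki67-only state.

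Germinal centre cells of the neither state, compared with follicular cells, differed in Neil1 by as much as the whole gate did. Neil1 was at 282, 345 and 402 CPM as the lowest, median and highest values there (3.87 on the log2 scale against follicular cells, SE 0.11; edgeR adjusted p = 6.6e-16). Polh (1.96, SE 0.24, edgeR adjusted p = 9.4e-07) and Msh6 (1.04, SE 0.17, edgeR adjusted p = 3.0e-05) were also called higher, with smaller fold changes than over the whole gate. Tdg, Apex1 and Apex2 had fold changes of 0.13, 0.43 and 0.28 that did not pass (edgeR adjusted p = 0.635, 0.0506 and 0.347), and Ung and Exo1 were too rare to be tested. Thus 3 of the 6 genes tested were called, beside 49.1% of 9550 genes. This comparison was added after the data were seen. With germinal centre cells of no Mcm or Top2a/Mki67 UMI only, Apex1 was at 0.083 and Apex2 at -0.093 on the log2 scale, neither called (edgeR adjusted p = 0.800 and 0.848).

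Among the wider pathway genes in that comparison, 18 were called higher and 10 lower of 58 tested, a share near the 49.1% called over all genes. The scaffold gene Xrcc1 (log2 fold change 2.08), the translesion polymerase genes Rev1 (2.00) and Rev3l (1.65), the glycosylase gene Mbd4 (1.75) and the ligase gene Lig4 (1.57) were higher in germinal centre cells of the neither state. The ubiquitin ligase gene Rad18 was lower (-1.46).

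**Figure D2:**
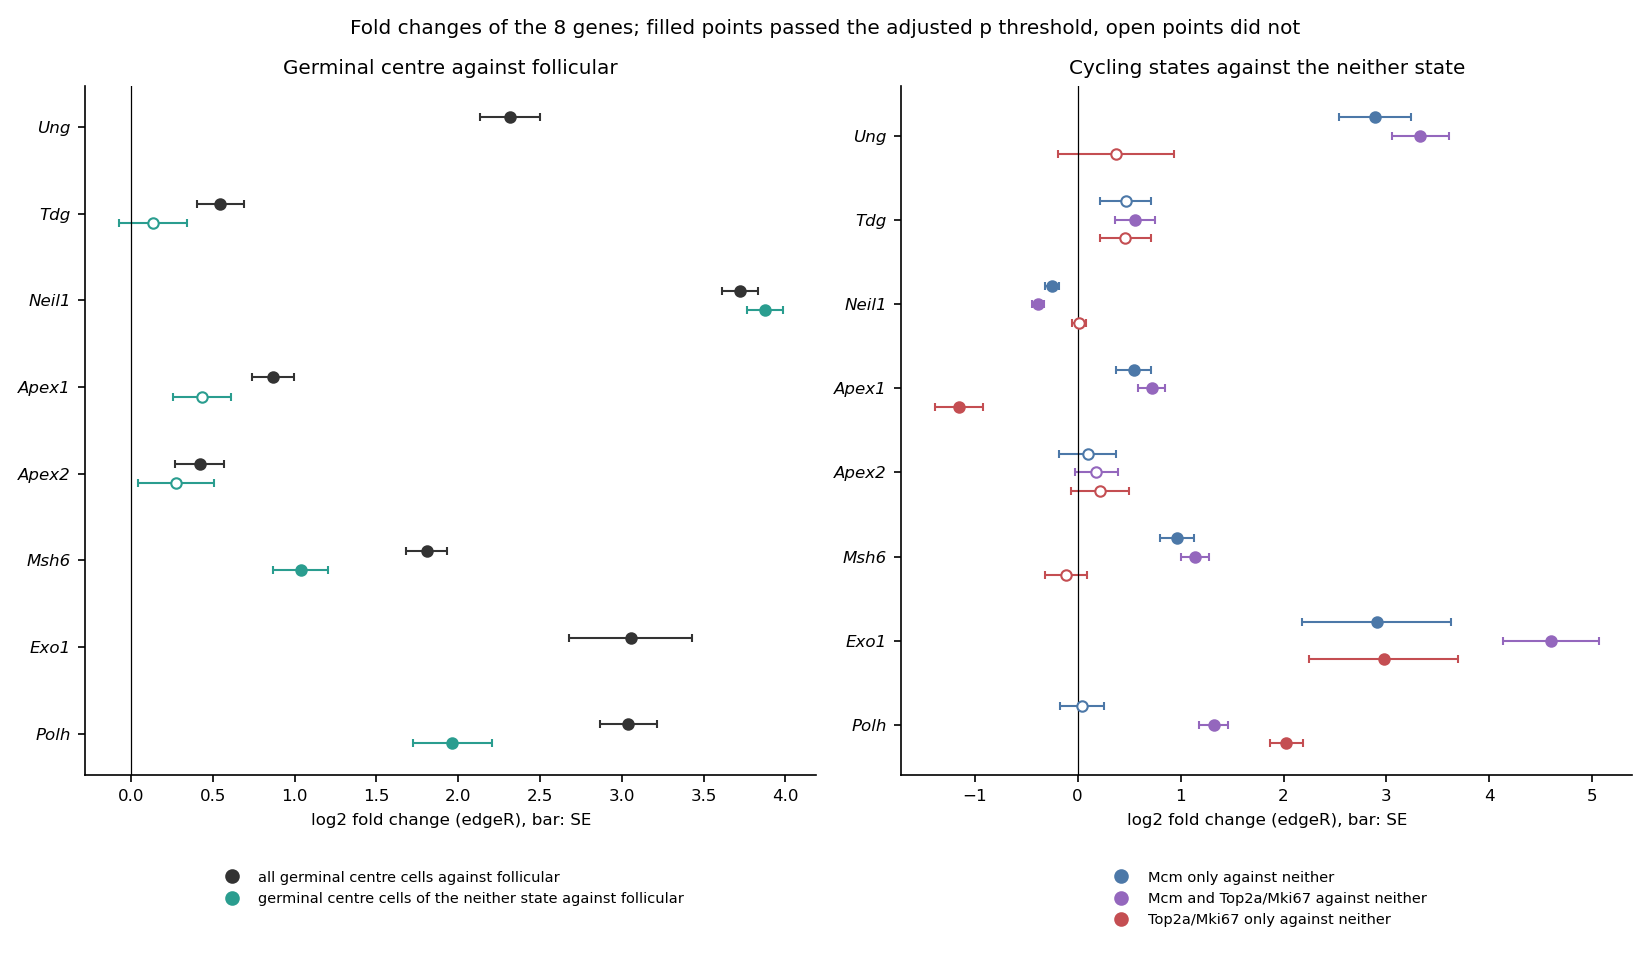
Log2 fold changes from edgeR (x axis, bars SE) of the 8 genes (y axis); left, all germinal centre cells and those of the neither state against follicular cells; right, the 3 cycling states against the neither state. Filled points passed the threshold; Neil1 lies at 3.72 and 3.87 on the left and between -0.39 and 0.02 on the right, and Ung and Exo1 have no second point on the left because they were not tested.

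In cells with the Mcm mark only, Ung rose from the neither state, from 1.42, 3.70 and 10.4 CPM as the lowest, median and highest values to 10.99, 26.9 and 40.8 CPM. The 2 states did not overlap (log2 change 2.89 with SE 0.35; edgeR adjusted p = 5.8e-08), and the call held in each lane (3.47 and 2.25). Msh6 rose from a median of 40.6 to 71.4 CPM, with 5 of 6 mice higher (0.97, SE 0.17, edgeR adjusted p = 4.2e-05); the call was lost in lane 2 alone (0.73, adjusted p = 0.104) and with states marked by 1 UMI (0.48, adjusted p = 0.121). Exo1 rose from 4 UMIs, all in KO3, to 18 UMIs over all mice (edgeR adjusted p = 0.0043); its fitted fold change of 2.91 depends on the prior count because 5 mice were at 0 in the neither state, and ran from 2.28 to 5.59 with 1 mouse left out. Apex1 rose in 5 of 6 mice (0.55, SE 0.17, edgeR adjusted p = 0.024). Neil1 fell by 0.25 on the log2 scale (SE 0.07, edgeR adjusted p = 0.0097), with all 6 mice lower and overlapping ranges. Of the 8 genes 4 were called higher and 1 lower, beside 14.5% of 7373 genes. The 4 include Ung and Exo1, which were too rare in the neither state to be tested there alone. They entered the fit of the 4 states through their counts in the other states, which leaves little room for a call in the lower direction. This holds for the comparisons with the neither state below too. The edgeR call was lost for Apex1 without WT1 (adjusted p = 0.0786), without KO1 (0.0800) and without KO2 (0.236), in lane 1 (0.102) and lane 2 (0.253), without a count filter (0.0580), without T cell or very deep cells (0.0682), with states marked by 1 UMI (0.0605) and with DESeq2 (0.0542). It was lost for Exo1 without KO2 (0.0696) and for Neil1 without WT1 (adjusted p = 0.129), in lane 2 (0.238), and with states marked by 1 UMI (log2 change -0.046, adjusted p = 0.865) or 3 UMIs (-0.17, adjusted p = 0.0773).

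Cells with both marks showed the highest mean levels of Ung, Msh6, Exo1, Apex1 and Tdg. For each of these genes the range overlapped that of the Mcm-only state, and these states were not tested against each other. Ung was at 28.6, 38.5 and 42.8 CPM as the lowest, median and highest values (3.33 on the log2 scale against the neither state, SE 0.27; edgeR adjusted p = 2.3e-13). Exo1 was at 18.0, 19.6 and 36.7 CPM, and 198 of its 238 germinal centre UMIs, 83.2%, came from this state, which held 47.4% of all UMIs of the gate. Msh6 was at 62.4, 82.5 and 104 CPM (1.14, SE 0.13, edgeR adjusted p = 3.1e-09), above every mouse of the neither state. Apex1 (0.72), Tdg (0.56) and Polh (1.32) also rose (edgeR adjusted p = 1.7e-05, 0.015 and 3.2e-10), and Neil1 fell by 0.39 (SE 0.06, edgeR adjusted p = 8.3e-07), with every mouse below every neither-state value. In sum 6 genes were called higher and 1 lower, beside 52.7% of the genes tested. The 6 include Ung and Exo1, which entered the fit through their counts outside the neither state. Apex2, at 17.4 ± 6.09 CPM against 17.2 ± 5.94 CPM, was not called. The edgeR call for Tdg was lost without KO3 (adjusted p = 0.0609), in lane 1 alone (log2 change 0.31, adjusted p = 0.387), without T cell or very deep cells (0.0627) and with states marked by 1 UMI (0.0872).

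Cells with the Top2a/Mki67 mark only had the highest Polh level. Polh was at 57.4 CPM in WT3, the lowest, at a median of 137 CPM and at 171 CPM in WT2, the highest, against 15.6, 31.7 and 41.6 CPM in the neither state. The states did not overlap (log2 change 2.03 with SE 0.16; edgeR adjusted p = 8.7e-14; 1.72 in lane 1 and 2.32 in lane 2). Apex1 moved the other way, to 8.20, 16.6 and 25.7 CPM from 29.6, 35.6 and 59.8 CPM, again without overlap (log2 change -1.16 with SE 0.23; edgeR adjusted p = 0.00015; adjusted p = 0.0701 in lane 2 alone). With states marked by 1 UMI the Apex1 change was -0.54 and lost its edgeR call (adjusted p = 0.199). Exo1 was also called higher (edgeR adjusted p = 0.0015), on 18 UMIs against 4, and lost the call without KO2 (adjusted p = 0.144); its fitted change ran from 1.84 to 5.74 with 1 mouse left out. Ung was at 0 to 5.50 CPM in 5 mice and at 32.8 CPM, from 4 UMIs, in WT3, and was not called. With 2 genes higher and 1 lower, 3 of 8 were called beside 26.7% of the genes tested. Exo1, counted among them, entered the fit through its counts outside the neither state.

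The 3 comparisons above share the neither state, so they are not independent of each other. Set directly against the Mcm-only state, the Top2a/Mki67-only state had lower Ung (log2 change -2.52 with SE 0.41; edgeR adjusted p = 7.0e-06), Apex1 (-1.70, SE 0.24, edgeR adjusted p = 4.1e-07) and Msh6 (-1.08, SE 0.20, edgeR adjusted p = 5.8e-05). Polh was higher (1.98, SE 0.18, edgeR adjusted p = 1.5e-11), as was Neil1 by a small amount (0.26, SE 0.07, edgeR adjusted p = 0.0080). The Neil1 call was lost without KO2 (edgeR adjusted p = 0.0558), in lane 2 alone (log2 change 0.054, adjusted p = 0.846) and with states marked by 1 UMI (0.14, adjusted p = 0.434) or 3 UMIs (0.13, adjusted p = 0.251). These 5 calls stood beside 18.3% of all genes. Apex1 and Polh did not overlap between the 2 states, while Ung overlapped through WT3.

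The order of levels over these gates differed by gene. Ung ran from both marks through Mcm only, Top2a/Mki67 only, the T gate and follicular cells to the neither state, and each neighbouring pair overlapped. Neil1 ran from Top2a/Mki67 only (364 ± 24.6 CPM) through neither (343 ± 44.0), Mcm only (289 ± 19.3) and both marks (263 ± 13.5) to follicular cells (23.2 ± 7.74) and the T gate; its only step without overlap was that from both marks to follicular cells. Polh ran from Top2a/Mki67 only (128 ± 39.3 CPM) through both marks (73.3 ± 12.2), neither (30.8 ± 8.76), Mcm only (29.0 ± 11.6) and the T gate to follicular cells (7.39 ± 3.37), and its only step without overlap lay between both marks and neither. Msh6 ran from both marks (83.3 ± 16.1 CPM) through Mcm only (68.5 ± 20.2), neither (38.7 ± 6.38) and Top2a/Mki67 only (35.7 ± 13.4) to follicular cells (18.1 ± 4.604) and the T gate. Apex1 ran from both marks (64.6 ± 9.57 CPM) to Top2a/Mki67 only (16.3 ± 6.37), which lay under the follicular level (26.7 ± 7.21), with neighbours overlapping throughout. Tdg, from 17.4 ± 2.63 CPM in the T gate to 31.7 ± 5.34 CPM with both marks, and Apex2, from 10.8 ± 3.09 to 19.4 ± 5.12 CPM, stayed in narrow ranges of means.

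The wider pathway genes were read in the same states. Against neither, the Mcm-only state had 21 of 54 tested genes higher and 2 lower, beside 14.5% called over all genes, among them the ligase gene Lig1 (log2 fold change 2.69), the clamp loader genes Rfc4 (2.27) and Rfc5 (1.91), the single-strand binding gene Rpa2 (2.04), Dut (1.84) and the flap endonuclease gene Fen1 (1.77). With both marks 30 were higher and 6 lower, beside 52.7%, led by Polq (4.41), Neil3 (4.28), Rfc4 (3.51), Tyms (3.46), Lig1 (3.38) and Fen1 (2.85). In the Top2a/Mki67-only state 19 were higher and 3 lower, beside 26.7%, led by Polq (4.42), Neil3 (4.36), H2afx (3.13), Rad18 (2.29), Tyms (1.99) and Rfc4 (1.98). The late state had 7 genes higher and 11 lower than the Mcm-only state, beside 18.3%; H2afx (2.98), Neil3 (2.98) and Polq (2.83) were higher, and Mad2l2 (-1.76), Lig1 (-1.24) and Rpa2 (-1.21) lower. Beside its 6 repair and resynthesis genes that fell there, the mismatch list had 2 that rose.

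Germinal centre cells were also divided by zone, into those with more Cxcr4 than Cd83 and Cd86 UMIs and those with fewer. Per mouse 14.6% ± 1.07 fell on the Cxcr4 side, 52.8% ± 4.06 on the Cd83/Cd86 side, and the rest were ties (SD, n = 6). Il4i1, a light zone marker not used in the split, was at 23.1 ± 10.1 CPM on the Cxcr4 side and 116 ± 18.1 CPM on the Cd83/Cd86 side, and Gcsam at 281 ± 11.7 and 169 ± 9.29 CPM. Aff2, a further dark zone marker of the list, was at 0 on both sides.

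Neil1 and Polh were higher on the Cxcr4 side. Neil1 was at 334, 360 and 381 CPM as the lowest, median and highest values there and at 235, 273 and 292 CPM on the Cd83/Cd86 side, with no overlap (log2 change 0.47 with SE 0.07; edgeR adjusted p = 1.3e-05; 0.57 in lane 1 and 0.34 in lane 2). Polh was at 48.9, 94.0 and 125 CPM against 31.2, 52.0 and 67.6 CPM and was higher in 5 of 6 mice, WT1 being the exception (0.73, SE 0.15, edgeR adjusted p = 0.0017; 0.75 and 0.66 within lanes). The other 6 genes did not pass, so 2 of 8 were called beside 11.4% of the 7739 genes tested. Apex1 was lower on the Cxcr4 side in 5 of 6 mice (46.3 CPM against 58.5 CPM on average) and missed the threshold (log2 fold change -0.31, edgeR adjusted p = 0.187), but passed it by edgeR without WT1 (-0.50, adjusted p = 0.0392) and without cells of T cell UMIs or very high depth (-0.49, adjusted p = 0.0398); without KO2 its change was -0.12. Of the 56 pathway genes tested, 8 were higher on the Cxcr4 side and 0 lower, beside 11.4% called over all genes, among them Lig4 (0.99), H2afx (0.74), Neil3 (0.63), Rfc4 (0.48), Xrcc1 (0.42) and Dut (0.40).

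**Figure D3:**
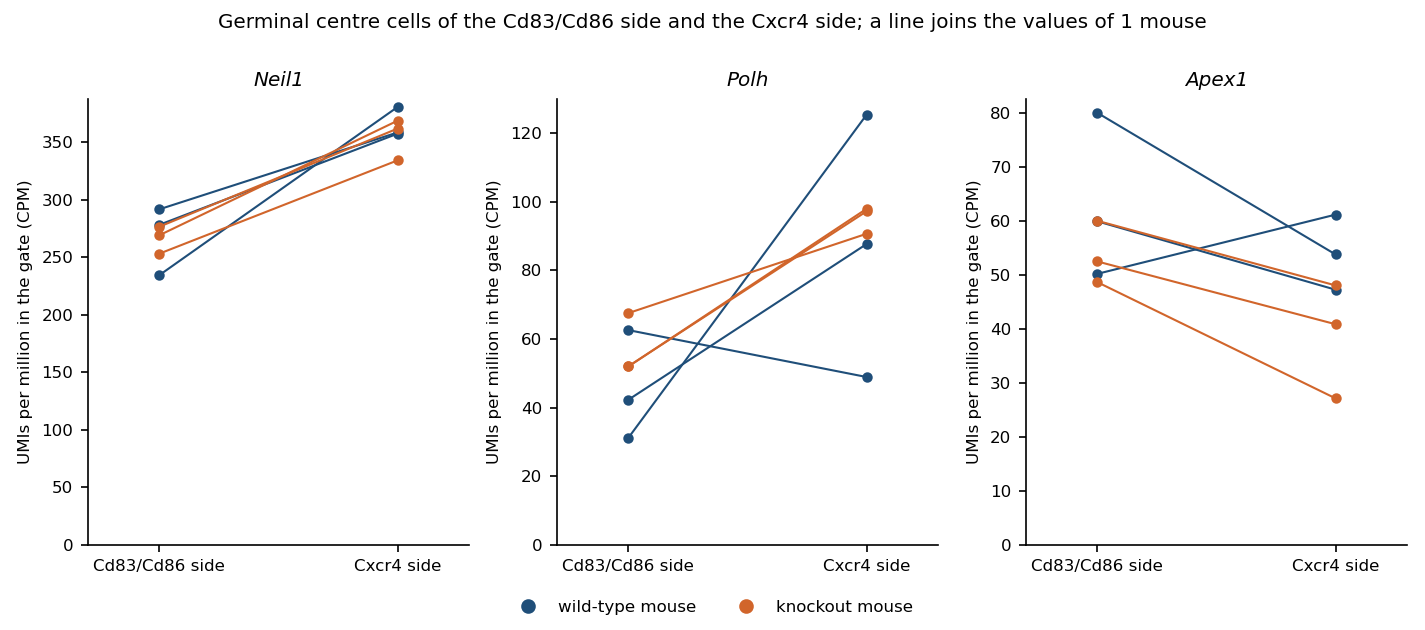
CPM (y axis, from 0) of Neil1, Polh and Apex1 in germinal centre cells of the Cd83/Cd86 and Cxcr4 sides (x axis), a line joining the values of 1 mouse, WT in blue and KO in orange. Every Neil1 line rises; the Polh line of WT1 and the Apex1 line of WT1 run against the other 5.

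The cycling states were not spread evenly over the sides. On the Cxcr4 side 40.6% ± 5.36 of cells had both marks and 16.9% ± 3.44 the Top2a/Mki67 mark only, against 28.7% ± 2.19 and 10.8% ± 1.83 on the Cd83/Cd86 side (SD, n = 6). Within the neither state 4 mice had at least 10 cells on the Cxcr4 side, WT2 (6 cells) and WT3 (9 cells) being dropped from the fit. There 0 of the 5 genes tested were called by edgeR, beside 3.09% of 5247 genes; over all genes 654 had an unadjusted p under 0.05, and DESeq2 also called none of the 8. Neil1 kept a fold change close to that of the whole gate (log2 0.39, SE 0.12, edgeR adjusted p = 0.0675). It passed narrowly under 3 alternatives, RLE size factors (0.0481), immunoglobulin genes left out (0.0426) and T cell or very deep cells left out (0.0464). Polh had a fold change of 0.77 (SE 0.41, edgeR adjusted p = 0.468).

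The knockout was compared with wild type per mouse, a question the genotype labels pose. No gene of the 8 was called by edgeR in any gate. In germinal centre cells 0 of 8 were called, beside 0.0594% of the 10103 genes tested (6 genes; 484 with an unadjusted p under 0.05; 12 called by DESeq2, none of them a member). Neil1 was at 323, 298 and 281 CPM in WT1 to WT3 and at 280, 307 and 319 CPM in KO1 to KO3 (log2 fold change 0.00, SE 0.08), so the genotypes overlapped throughout. Ung was at 23.4, 15.6 and 26.6 CPM in WT and 26.3, 26.7 and 21.8 CPM in KO mice (0.13, SE 0.16). Msh6 was at 73.0, 57.7 and 67.2 against 53.9, 72.6 and 56.7 CPM (-0.13, SE 0.13). Polh was at 64.8, 57.7 and 53.2 CPM in WT and 74.0, 66.1 and 66.4 CPM in KO mice, the only gene of the 8 whose genotypes did not overlap in this gate. Its log2 fold change of 0.21 (SE 0.11) did not pass by edgeR (adjusted p = 1.00). The fold changes of the 8 genes lay between -0.16, for Apex1, and that of Polh. The share of all genes whose genotypes did not overlap was not counted, here or in the gates and states below. Non-overlap of 3 against 3 mice is therefore a description of the values only.

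In follicular cells 6 genes could be tested and 0 were called, beside 0.0114% of 8807 genes (1 gene called by edgeR, 19 by DESeq2, 629 with an unadjusted p under 0.05). Neil1 was at 21.9, 13.9 and 19.4 CPM in WT1 to WT3 and at 22.8, 23.7 and 37.3 CPM in KO1 to KO3. Every KO mouse was thus above every WT mouse, with a log2 fold change of 0.60 (SE 0.22), which did not pass (edgeR adjusted p = 0.556). These levels come from 22 to 47 UMIs per mouse. In the same cells the 10 germinal centre markers summed to 125 to 189 CPM in WT and 180 to 198 CPM in KO mice. The 5 macrophage and monocyte markers summed to 4.10 to 22.3 CPM in WT and 50.4 to 72.2 CPM in KO mice. The part of either set of markers in the Neil1 difference was not tested.

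Within the germinal centre no member was called either. In the neither state 0 of 6 genes tested were called, beside 0.0276% of the genes tested (2 genes by edgeR, 0 by DESeq2, 320 with an unadjusted p under 0.05). In the 2 Mcm states together 0 of 8 were called, beside 0.111% (10 genes by edgeR, 3 by DESeq2, 419 unadjusted). Polh in those states was at 60.4, 44.4 and 57.8 CPM in WT1 to WT3 and at 75.2, 72.7 and 67.7 CPM in KO1 to KO3, every KO mouse above every WT mouse, and did not pass (log2 change 0.34, SE 0.13; edgeR adjusted p = 0.868). In the state with both marks, KO mice were also all above WT mice for Polh (means 83.1 and 63.6 CPM) and Ung (41.2 and 34.0 CPM), and in the neither state all below for Ung (2.85 and 6.48 CPM, on 1 to 7 UMIs per mouse); genotypes were not tested in these for Ung, nor for Polh with both marks alone. The genotype difference of the germinal centre minus follicular change gave 0 of 8, beside 0.0297% (3 genes by edgeR, 1 by DESeq2, 571 unadjusted). Of the wider pathway list, 0 of 62 genes tested in germinal centre and 0 of 55 in follicular cells were called, with median log2 fold changes of 0.00 and 0.05. A p that misses the threshold does not show that the genotypes were alike.

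**Figure D4:**
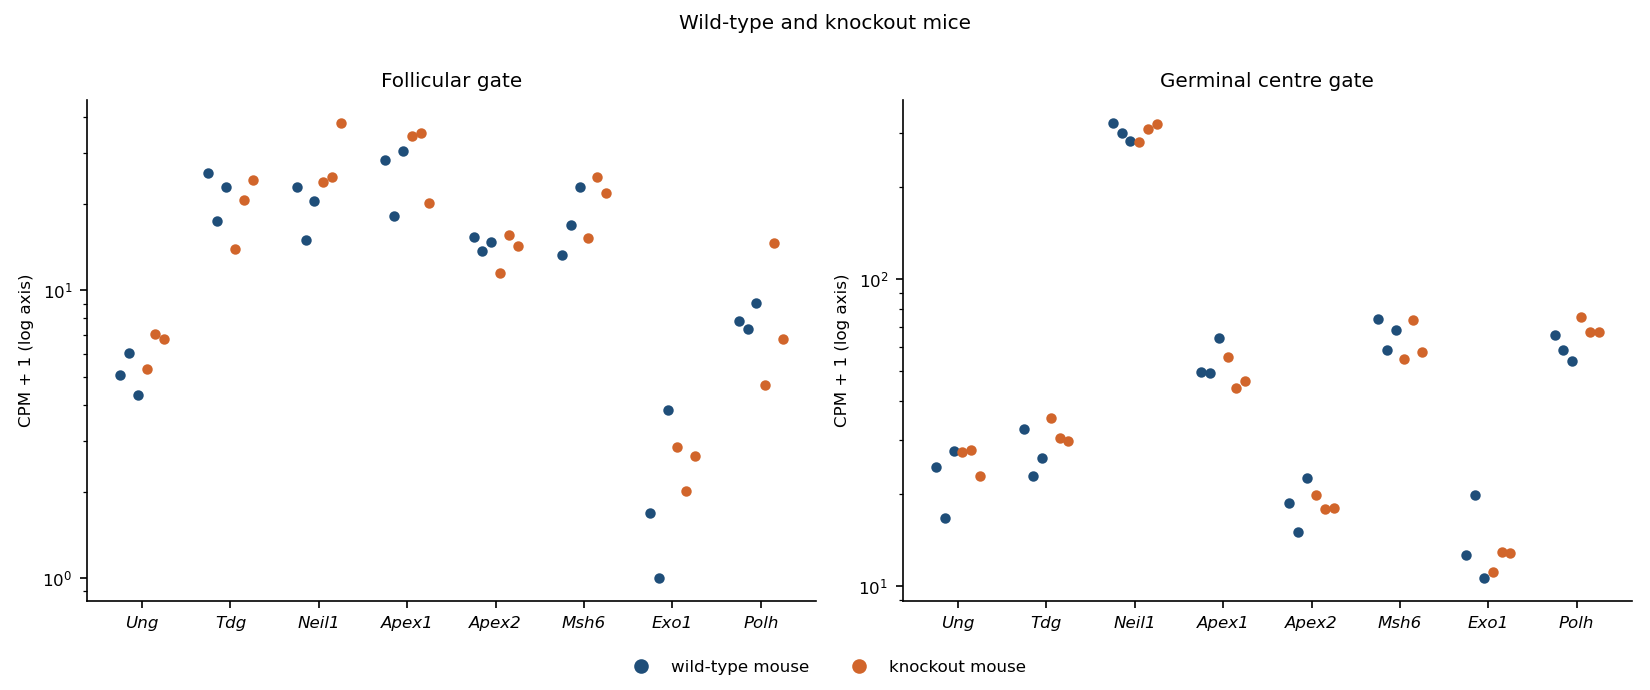
CPM plus 1 (y axis, log scale) of the 8 genes (x axis) in follicular cells (left) and germinal centre cells (right), each point 1 mouse, WT in blue and KO in orange. The genotypes overlap for all genes except Neil1 in the left panel and Polh in the right panel, and neither of these passed the test. How many of all genes lack overlap was not counted.

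The share of germinal centre cells in each state was close between genotypes, at 41.5% ± 1.38 in WT and 41.5% ± 2.86 in KO mice for the neither state (SD, n = 3; exact two-sided permutation test, p = 1) and 29.1% ± 3.87 against 30.7% ± 3.25 for both marks (exact permutation p = 0.60). Cells on the Cd83/Cd86 side made up 50.04% ± 4.11 in WT and 55.6% ± 0.88 in KO mice, and those on the Cxcr4 side 13.9% ± 0.76 and 15.3% ± 0.84. Ties made up 36.1% ± 3.62 and 29.0% ± 1.09, so both sides were larger in KO mice beside fewer ties. Each of these shares has the smallest exact permutation p that 3 against 3 mice allow, 0.10. The shares sum to the whole gate and are not independent.

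Finally, the genes with the most similar profile were read from 30 points, the follicular gate and 4 germinal centre states of each mouse, over 5706 genes with a mean of at least 20 CPM. Points of a mouse share its library, and the correlations are descriptive. Of the 4 genes most like Neil1, 3 were Nuggc (Pearson r of log2(CPM + 1) 0.99), Anxa2 (0.99) and Basp1 (0.99), of which Basp1 is one of the gate genes. Ung was most like Mcm5 (0.87), which defines the states, Mcm4 (0.86), Dnajc9 (0.86) and Rpa2 (0.86). Polh was most like Hjurp (0.96), Cdca8 (0.95), Polr2g (0.94) and Cenpa (0.93), of which Hjurp, Cdca8 and Cenpa act at centromeres in mitosis. Msh6 was most like Rfc2 (0.90), Tomm7 (0.89), Ndufab1 (0.88) and E2f1 (0.88), and Exo1 like Maz (0.89), Rfwd3 (0.88), Lsm8 (0.87) and Dtymk (0.86). Apex1 was most like Fbl (0.84), Mrps28 (0.84), Rpl15 (0.82) and C1qbp (0.81), genes of the nucleolus, ribosomes and mitochondria. The nearest genes of Tdg were Wdr37 (0.94), Ankrd52 (0.90), Maea (0.87) and Psmc6 (0.85), and those of Apex2 were Sucla2 (0.66), Sra1 (0.65), Rassf3 (0.63) and Rcor1 (0.61). Tdg was at 0 in WT2 of the Mcm-only state (21 cells) and in WT3 of the Top2a/Mki67-only state (27 cells). Points at 0 can weigh heavily in r on the log scale, and Ung and Exo1 had such points too. Their nearest genes and those of Tdg are therefore less certain as similar profiles.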

How the data were processed

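The authors deposited matrices of raw UMI counts; per the file headers these come from Cell Ranger 7.0.1, and per the submitters' processing notes the build is mm10. They also deposited a table of hashtag calls, without its calling rule in the sources used here. That table gave each cell its mouse and genotype. Kept cells had 1 hashtag, 500 or more UMIs, 200 or more detected genes and mitochondrial UMIs of 10% or less; no doublet caller was run. Counts were summed per mouse and gate over both lanes (at least 10 cells) and tested with edgeR 4.0.16 in R 4.3.3 (quasi-likelihood F test, two-sided, TMM, filterByExpr, Benjamini-Hochberg adjusted p under 0.05 over all genes tested), with the mouse as a block where both groups came from the same animals. DESeq2 1.42.0 was an alternative. SEs were taken as the fold change over the root of F. The procedure was also run on simulated counts without differences between mice, and that run is not used here as support. Descriptive tables were made with Python 3.11.15.

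Named were the 8 members, Pik3cg, per comparison up to 6 called genes of the pathway lists with the largest fold change, and per member the 4 genes of highest correlation; 1 of the 4 for Neil1 is not reported here. The members and lists were chosen with earlier results of these data known. Antisense genes overlap Tdg (Glt8d2), Apex1 (Pip4p1), Apex2 (Alas2 and Pfkfb1) and Msh6 (Fbxo11), and a pseudogene, Tdg-ps, is annotated; the sources used here do not give whether counting used strand, so these counts are less certain. Receptor contigs were not used here, and counting intervals and floors (3 UMIs) cover counting error only.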

Additional observations from a re-analysis of the deposited data

How the results depend on the processing

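Of the values recomputed under other settings, the calls of Neil1, Ung, Polh and Msh6 between germinal centre and follicular cells held under every setting that could test them. Without the replicate block, that is without the mouse as a block, all 8 genes were still called (6456 genes in all) and no other call on the members changed; the pairing comes from gates of the same animal. For KO against WT no paired analysis was possible because the hashtag table gives no number shared by the genotypes. Restricting germinal centre cells to the neither state left 3 members called, and to cells with no Mcm or Top2a/Mki67 UMI 3791 genes and 3 members, with Apex2 at -0.0926; both were added after the data were seen. In lane 1 alone the genes called were 530 (3 members) for Mcm only, 2409 for both marks and 1119 for Top2a/Mki67 only against neither, 743 for Top2a/Mki67 only against Mcm only, 416 between the zones and 43 within the neither state, and for KO against WT 11 in follicular cells, 0 in the neither state and 5 in the Mcm states, with Neil1 at -0.0496 in germinal centre cells. In lane 2 alone these were 433 (1 member), 1122 (1 member) for Top2a/Mki67 only against neither, 687, 484, 82 and, for KO in the Mcm states, 6. Marking states by 1 UMI gave 376 genes (1 member) for Mcm only, 993 (1 member) for Top2a/Mki67 only, 787 between these, 67 for the zones of the neither state and 0 for KO in the neither state; marking by 3 UMIs gave 7 for the last. DESeq2 called 573 genes between the zones and 39 within the neither state, and for KO against WT 19 in follicular, 12 in germinal centre (Neil1 at -0.00012), 0 in the neither state, 3 in the Mcm states and 1 for the difference of changes. RLE size factors called 1 member between the zones of the neither state, as did leaving out immunoglobulin genes and leaving out T cell or very deep cells. Without a filter on low counts, KO against WT gave 100 genes in follicular, 170 in germinal centre, 92 in neither, 148 in Mcm states and 114 for the difference; without immunoglobulin genes 11, 16, 5 and, for the difference, 12. Without T cell or very deep cells these were 4 in follicular, 11 in germinal centre (Neil1 at -0.0134) and 12 for the difference; a gate of 3 genes gave 14 (Neil1 at -0.0128) and 5. Library totals gave 6 genes for KO in the Mcm states, and follicular gates of 2 Fcer2a UMIs or without cycling UMIs gave 9 and 21 for the difference. Leaving out 1 mouse at a time gave 707 to 1081 genes and 3 to 5 members for Mcm only, 64 to 162 for the zones of the neither state, and for KO against WT 0 to 24 in follicular, 3 to 17 in germinal centre, 0 to 10 in neither, 3 to 22 in Mcm states and 1 to 20 for the difference, with Neil1 at -0.0585 to 0.0612, Exo1 at -0.19 to 0.0788 and Apex2 at -0.11 to 0.0464 on the log2 scale in germinal centre cells. In each of these settings 0 members were called for KO against WT. The causes of these changes were not tested. Depth limits Exo1, with 14 follicular UMIs, and Ung, with 47, most.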
